A study of Mus musculus with 3 samples.

Results

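The genes described here are 60 drivers of the cell cycle and of DNA replication, and the question put to the data was at which of them Setd1a was found on chromatin in quiescent neural stem cells (NSCs). The genes were chosen by function and sorted by the stage at which their products are best known to act. This was done with earlier results of these data known. The G1 entry group held 20 genes, the replication licensing group 15, the S phase group 9 and the mitosis group 16. They are 60 of the 22028 protein-coding genes of the GENCODE M21 annotation of the mouse genome (mm10). A gene was counted as having a peak when the nearer edge of a Setd1a interval was no more than 1000 bp from where any of its transcripts starts (the transcription start site, TSS). All 60 symbols were found in the annotation.

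Setd1a was mapped by CUT & RUN, in which an antibody directs a nuclease to cut DNA beside the protein it recognizes and the released fragments are sequenced. There were 2 libraries made with a Setd1a antibody (Abcam ab70378) and 1 made with IgG, and all 3 came from cultured NSCs of the dentate gyrus held in BMP4 and FGF2 without EGF for 5 days. The mice were 7 to 8 weeks old and carried Hopx-CreERT2, 2 floxed Setd1a alleles (Setd1a fl/fl) and H2B-GFP, so that the cells labelled WT had loxP sites at Setd1a and an inducible Cre under the *Hopx* promoter. BMP4 and FGF2 were each given at 20 ng/ml. The paper's scheme adds lentivirus with Cre-GFP or GFP alone at day 2, before the harvest for CUT & RUN at day 5. The CUT & RUN cultures are called WT, the paper's term in the RNA-seq for cells expressing GFP, and their virus is not named. The deposited result was 1 list of 6969 peaks called in both Setd1a replicates, with a chromosome, a start and an end for each and no height, score or p-value. Values per replicate and the depth of the libraries are therefore unknown, no spread between replicates could be set beside any count, and a gene without a peak is only a gene that this list does not reach.

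Setd1a is the catalytic subunit of a complex that methylates lysine 4 of histone H3, a mark found at the start sites of active genes. Entry into the cell cycle begins with cyclin D and *Cdk4* or *Cdk6*, which inactivate the pocket proteins (*Rb1*, *Rbl1* and *Rbl2*) and so release the E2F factors that switch on genes of replication. In quiescent cells a pocket protein (*Rbl1* or *Rbl2*), *E2f4* or *E2f5* and the MuvB core form the DREAM complex. It holds genes of S phase silent through E2F sites and genes of mitosis silent through an element called the CHR. Licensing, the loading of the MCM helicase onto origins, takes place in G1, and adult NSCs in vivo rest in a state in which this machinery is largely turned down.

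Peaks were present at 25 of the 60 genes, or 41.7% (95% Wilson interval 30.1 to 54.3%), against 21.4% of all protein-coding genes (4714 of 22028). The 4 stages did not carry peaks at the same share. The S phase group had peaks at 7 of 9 genes (77.8%, interval 45.3 to 93.7%), the G1 entry group at 8 of 20 (40.0%, 21.9 to 61.3%), the mitosis group at 6 of 16 (37.5%, 18.5 to 61.4%) and the licensing group at 4 of 15 (26.7%, 10.9 to 52.0%). The intervals of all 4 stages overlap, they cover counting error over genes only, and no test between stages was run. The shares also depend on which genes were put in each stage, a choice made with earlier results known. Of 26 further replication fork genes kept in a separate list, 4 had a peak (15.4%).

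The comparison depends strongly on the base composition of the promoters. Most of these genes start in CpG-rich DNA, and peaks in the list were more frequent at CpG-rich promoters throughout the genome. Where the 1000 bp around the TSS had an observed over expected CpG ratio of 0.6 or more, 24 of 52 cell cycle genes had a peak (46.2%, 33.3 to 59.5%), against 39.6% of all protein-coding genes with such a promoter (4173 of 10531). The share of the cell cycle genes lay close to that background, and the interval around it includes the background value. This is no test, because the interval covers only counting error over genes chosen with earlier results known. The same holds for the intervals of the stages. Among the other 8 genes, whose ratio was under 0.6, *Orc4* had a peak. At CpG-rich promoters the S phase group had peaks at 7 of 8 genes (87.5%, 52.9 to 97.8%), G1 entry at 8 of 18, mitosis at 6 of 14 and licensing at 3 of 12 (25.0%, 8.89 to 53.2%).

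**Figure D1:**
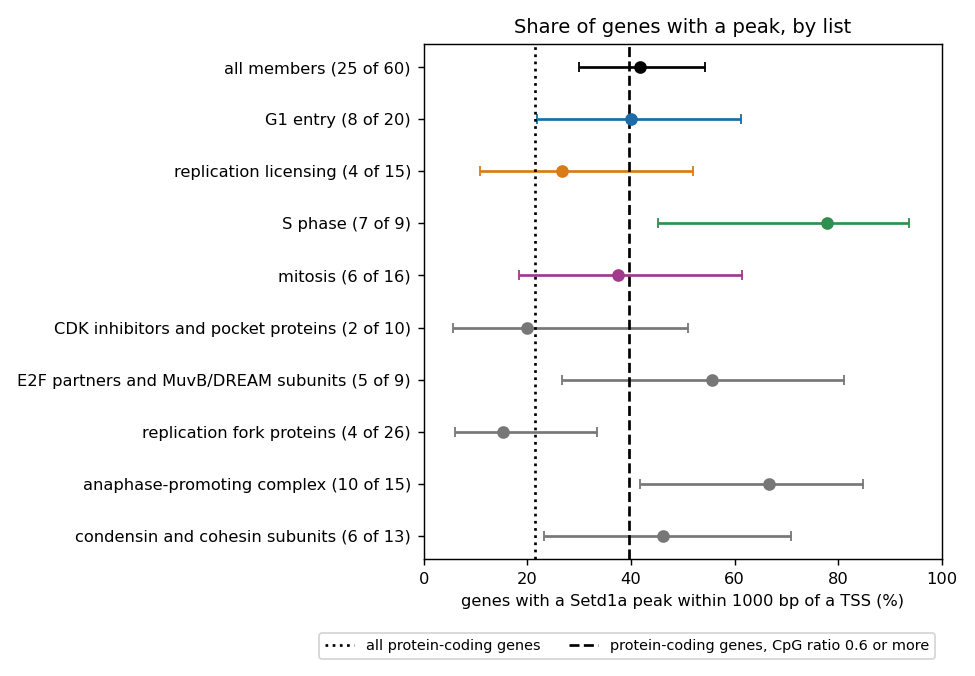
Share of genes with a Setd1a peak within 1000 bp of a TSS (horizontal axis, percent) for all 60 genes, the 4 stages (coloured) and 5 other lists of the same pathway (grey), with 95% Wilson intervals as bars and the count in each label. The dotted line marks all protein-coding genes (21.4%) and the dashed line those with a CpG ratio of 0.6 or more (39.6%). The S phase group lies highest among the 4 stages (77.8%) and licensing lowest (26.7%). All lists were chosen with earlier results of these data known.

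In the G1 entry group, peaks lay at some members of each family with several genes and at no family as a whole. Among the D-type cyclins, which carry growth signals to the cell cycle, *Ccnd1* was counted and *Ccnd2* and *Ccnd3* were not. *Ccne2* had a peak and *Ccne1*, the other cyclin E, did not. *Cdk4* had a peak and *Cdk6*, the other kinase that pairs with cyclin D, did not. *Cdk7*, the catalytic subunit of the CDK-activating kinase, had a peak, while its cyclin, *Ccnh*, did not. Among the E2F factors, peaks lay at *E2f1* and *E2f3* of the 3 activators and at *E2f8* of the 5 repressors, while *E2f2*, *E2f4*, *E2f5*, *E2f6* and *E2f7* had none. *Ccnc*, the cyclin of the Mediator kinase module, had a peak. *Cdk2*, the partner of cyclin E, and *Cdc25a*, the phosphatase that activates it, had none. The families were drawn up after these values had been seen, and their counts are descriptions.

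The widest G1 entry peaks were at *Ccne2*, *E2f8* and *Cdk4*. The *Ccne2* peak (chr4:11190777-11191551) was 775 bp wide, covered the TSS from 574 bp upstream to 200 bp downstream, and had a GC content of 75.1% and a CpG ratio of 0.981. The *Cdk4* peak (chr10:127062864-127063624) was 761 bp wide and lay mainly upstream, from 670 bp before the TSS to 90 bp after it, with a GC content of 54.4% and a CpG ratio of 0.566. The *E2f8* peak (chr7:48880938-48881706) was 769 bp wide and lay mainly inside the gene, from 110 bp upstream to 658 bp downstream, with a GC content of 73.6% and a CpG ratio of 0.880. It also covered a TSS of *Gm2788*, a noncoding gene on the opposite strand, which was nearer to its midpoint than that of *E2f8*.

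The peaks at *E2f1* (554 bp) and *Cdk7* (414 bp) covered a TSS, with midpoints 65.5 bp upstream and 58.5 bp downstream of it. The *E2f3* peak (519 bp) ended 7 bp before the TSS and lay wholly upstream. The *Ccnc* peak (759 bp) began 170 bp after the nearest TSS and lay wholly in an intron. *Ccnd1* was the only gene of the 25 whose peak rested on transcripts that are not protein-coding. Its 306 bp interval (chr7:144937721-144938026) lay inside the gene, with 140 bp in coding sequence and 166 bp in an intron, 171 bp downstream of the start of a transcript that is not protein-coding and 1843 bp downstream of the 5′-most protein-coding TSS of *Ccnd1*. With protein-coding transcripts alone, *Ccnd1* had no peak.

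*Ccnd3* was the only gene of the 60 whose nearest peak lay between 1000 and 3000 bp from a TSS. That peak (chr17:47501477-47502310) was 834 bp wide and ended 2741 bp upstream of the gene. For the other 11 G1 entry genes without a peak the nearest one lay farther away, up to 369786 bp from *Ccnd2*.

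The DNA just upstream of G1 entry genes with a peak is shown because it holds the letters read by E2F factors or the letters of the CHR. Each sequence is from the GRCm38 reference of RefSeq (the build of mm10), is written 5′ to 3′ on the strand of the gene, and has the E2F letters (TTTCCCGC, TTTGGCGC, TTTCGCGC or TTTGCCGC, either strand) or CHR letters (TTTGAA or TTCGAA, either strand) in capitals. For *E2f8* the stretch is chr7:48881597-48881716 on the minus strand, of which 110 bases lie in the peak. For *E2f3* it is chr13:29986064-29986183 on the minus strand, of which 114 bases lie in the peak. For *E2f1* it is 30 bases at chr2:154569857-154569886 on the minus strand, inside the peak and inside the 5′ UTR of the longer transcript. *Cdc25a* (chr9:109875459-109875578, plus strand) has no peak and was added after the values had been seen, to set a promoter of the same kind beside them.
E2f8: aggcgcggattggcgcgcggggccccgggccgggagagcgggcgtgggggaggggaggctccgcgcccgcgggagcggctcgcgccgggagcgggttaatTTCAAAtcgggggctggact
E2f3: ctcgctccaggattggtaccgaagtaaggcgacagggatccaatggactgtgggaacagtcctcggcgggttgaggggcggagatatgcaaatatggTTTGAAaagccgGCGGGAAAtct
E2f1: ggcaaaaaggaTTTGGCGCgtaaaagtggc
Cdc25a: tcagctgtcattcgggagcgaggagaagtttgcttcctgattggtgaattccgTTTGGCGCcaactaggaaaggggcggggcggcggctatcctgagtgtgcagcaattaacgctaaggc
*E2f3* held both kinds of letters within 23 bp of its TSS, and its E2F letters began 11 bp before the TSS and were not wholly inside the peak. *Cdc25a* held the same E2F letters as those in capitals for *E2f1*, TTTGGCGC, with the nearest peak 42509 bp away. A second E2F match of *E2f1*, GCGGCAAA, began 168 bp before the TSS used and lay inside the peak. The stretch shown starts within that match, so its last bases are in lower case.

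In the licensing group, peaks reached 1 of the 6 subunits of the MCM helicase, 2 of the 6 subunits of the origin recognition complex and 1 of the 3 genes for loading and its control. *Mcm4* had a peak, and *Mcm2*, *Mcm3*, *Mcm5*, *Mcm6* and *Mcm7* did not. *Orc4* and *Orc6* had peaks, while *Orc1*, *Orc2*, *Orc3* and *Orc5* did not. *Cdt1*, which brings the helicase to the origin complex, had a peak, while its partner *Cdc6* and its inhibitor *Gmnn* (geminin) did not.

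At 3 of these 4 genes the peak was shared with a protein-coding gene on the opposite strand, against 26.8% of all protein-coding genes with a peak and 20.0% of the 25 genes. The *Mcm4* peak (chr16:15637444-15638048, 605 bp) ended 44 bp before the gene, had a GC content of 60.7% and a CpG ratio of 0.777, and covered a TSS of *Prkdc*, a DNA repair kinase gene on the opposite strand. By nearest TSS it belonged to *Prkdc*, so that no MCM gene then had a peak. The *Orc4* peak (chr2:48948791-48949457, 667 bp) covered a TSS of *Orc4*, had a GC content of 63.6% and a CpG ratio of 0.700, and lay 51 bp from a TSS of *Mbd5* on the opposite strand. The *Orc6* peak (476 bp) also covered a TSS of *Vps35* on the opposite strand. The *Cdt1* peak (chr8:122567364-122568020, 657 bp) was shared with no other gene. It ran from 651 bp upstream to 5 bp past the TSS, and its GC content was 62.0% with a CpG ratio of 0.812.

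For the 11 licensing genes without a peak the nearest one lay 3122 bp (*Mcm2*) to 449534 bp (*Orc5*) from a TSS, with a median of 75138 bp. *Mcm7* came next after *Mcm2*, at 4349 bp. The upstream stretches of *Mcm4* and *Mcm5* show that E2F letters were present at a gene with a peak and at a gene without. The stretch of *Mcm4* is chr16:15637401-15637520 on the minus strand, with 77 of its bases in the peak, and that of *Mcm5*, chosen after the values had been seen, is chr8:75109449-75109568 on the plus strand, with none. Capitals mark E2F letters.
Mcm4: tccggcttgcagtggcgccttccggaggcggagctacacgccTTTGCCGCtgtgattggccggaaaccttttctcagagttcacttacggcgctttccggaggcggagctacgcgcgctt
Mcm5: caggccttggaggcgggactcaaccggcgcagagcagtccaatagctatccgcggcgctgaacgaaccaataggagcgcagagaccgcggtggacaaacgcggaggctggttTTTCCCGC
The E2F letters of *Mcm4* shown began 78 bp before the TSS and lay inside the peak. Those of *Mcm5* shown ended at the base before the TSS, and the nearest peak was 75138 bp away.

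In the S phase group, all but *Mcm10* and *Rrm1* had a peak. The genes with a peak were *Ccna2* (cyclin A2, which drives S phase with *Cdk2*), *Cdc45*, *Gins1* and *Gins2* (parts of the active replicative helicase), *Pcna* (the sliding clamp of DNA polymerases), *Rrm2* (the regulated subunit of ribonucleotide reductase) and *Atad2* (a chromatin ATPase). *Mcm10*, which helps to activate the helicase, and *Rrm1*, the large subunit of ribonucleotide reductase, had their nearest peaks at 103779 and 190719 bp. Each of the 7 peaks covered the TSS of at least 1 annotated transcript. The 5′-most protein-coding TSS was covered by 5 of the 7, while the *Gins1* peak began 2 bp after it and the *Rrm2* peak 100 bp after it.

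The *Ccna2* peak (chr3:36571777-36572516) was the widest in this group at 740 bp and was nearly centred on the TSS, with its midpoint 3.5 bp downstream, a GC content of 62.8% and a CpG ratio of 0.947. The *Gins2* peak (chr8:120589014-120589702, 689 bp) had a GC content of 62.7% and a CpG ratio of 0.884 and also covered a start of *Gm10614*, a noncoding gene on the opposite strand. The *Rrm2* peak (chr12:24708341-24708928, 588 bp) had a GC content of 60.5% and a CpG ratio of 0.724. *Pcna* was the only gene of the 60 with 2 peaks in reach. Its TSS was covered by a peak of 325 bp, 40 bp from a start of the antisense gene *AV099323*, and a second peak of 387 bp lay 764 to 1150 bp downstream. The remaining peaks were at *Atad2* (485 bp), *Gins1* (444 bp) and *Cdc45* (349 bp), the last of which also covered a start of *Ufd1* on the opposite strand.

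Only *Gins1* and *Cdc45* of the 9 S phase genes had an exact run of the E2F or CHR letters in the 250 bp upstream of the TSS. Their sequences are given with the letters in capitals (E2F in *Gins1*, CHR in *Cdc45*). The stretch of *Gins1* is chr2:150909474-150909593 on the plus strand and has no base in the peak. That of *Cdc45* is chr16:18812103-18812222 on the minus strand, 250 to 131 bp upstream, with 13 bases in the peak.
Gins1: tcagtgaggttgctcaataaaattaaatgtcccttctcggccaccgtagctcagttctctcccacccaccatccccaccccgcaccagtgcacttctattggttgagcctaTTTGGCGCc
Cdc45: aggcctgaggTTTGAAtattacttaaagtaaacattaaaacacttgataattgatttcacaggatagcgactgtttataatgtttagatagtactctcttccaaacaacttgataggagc
In both genes the letters lay outside the peak. The E2F letters of *Gins1* began 32 bp before the TSS used, and the CHR letters of *Cdc45* began 240 bp before it.

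In the mitosis group, peaks lay at 3 of the 4 Polo-like and Aurora kinases, at *Ccnb1*, at *Wee1* and at *Mad2l1*. *Plk1* drives entry into and passage through mitosis, *Plk4* controls the copying of centrioles, and *Aurka* acts at the spindle poles. *Aurkb*, the kinase of the chromosomal passenger complex, had no peak. *Ccnb1* had a peak, while *Ccnb2* and *Cdk1*, the kinase that B-type cyclins activate, did not. *Wee1*, which restrains *Cdk1*, had a peak, and none of the 3 Cdc25 phosphatases that release it did (*Cdc25a* of the G1 entry group, *Cdc25b* and *Cdc25c*). Of the spindle checkpoint genes and *Cdc20*, *Mad2l1* had a peak and *Bub1*, *Bub1b*, *Ttk* and *Cdc20* did not. *Mki67*, the gene of the proliferation marker Ki67, had none.

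The *Aurka* peak (chr2:172370641-172371532) was the widest of the 25 at 892 bp, with a GC content of 60.9% and a CpG ratio of 0.842. It lay wholly upstream, ending 106 bp before the TSS, and covered a start of *Cstf1*, an RNA processing gene on the opposite strand, to which it belonged by nearest TSS. The *Mad2l1* peak (chr6:66535392-66536193, 802 bp) lay wholly within the gene, from 2 bp after the 5′-most protein-coding TSS and across the start of a shorter transcript, with a GC content of 52.6% and a CpG ratio of 0.812. The *Ccnb1* peak (chr13:100786202-100786894, 693 bp) was centred 22.0 bp downstream of its TSS, with a GC content of 62.3% and a CpG ratio of 0.756. The *Plk1* peak (chr7:122159087-122159553, 467 bp) covered its TSS and that of the antisense gene *Gm15489*, which was nearer to its midpoint, and had a GC content of 57.8% and a CpG ratio of 0.822. The *Plk4* peak was 310 bp wide and covered the TSS. The *Wee1* peak, 243 bp wide, was the narrowest of the 25, and 3.13% of all peaks in the list were narrower. It began 131 bp downstream of the TSS.

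For the 10 mitosis genes without a peak the nearest one lay 6257 bp (*Cdc25b*) to 410604 bp (*Cdk1*) from a TSS. *Cdc20* (7399 bp) and *Aurkb* (8698 bp) were the next closest. The CHR (cell cycle genes homology region) is best known at genes of this group. The sequences of *Mad2l1*, *Wee1* and *Cdk1* are given with CHR letters in capitals, as are the E2F letters TTTCGCGC in *Cdk1*. The stretch of *Mad2l1* is 30 bases at chr6:66535429-66535458 on the plus strand, inside the peak and inside the 5′ UTR of a longer transcript. That of *Wee1* is chr7:110121926-110122045 on the plus strand, with no base in the peak. That of *Cdk1*, chosen after the values had been seen, is chr10:69352939-69353058 on the minus strand.
Mad2l1: tgcgtagttattTTTGAAccgggtggcggg
Wee1: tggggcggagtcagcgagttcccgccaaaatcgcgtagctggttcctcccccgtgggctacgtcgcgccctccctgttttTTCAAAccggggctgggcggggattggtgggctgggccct
Cdk1: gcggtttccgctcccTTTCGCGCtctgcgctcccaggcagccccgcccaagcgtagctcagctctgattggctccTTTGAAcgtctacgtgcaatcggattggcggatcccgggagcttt
*Cdk1* held E2F and CHR letters in one stretch of 120 bases, and the list had no peak within 410604 bp of its start sites. The CHR letters of *Wee1* began 40 bp before the TSS.

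**Figure D2:**
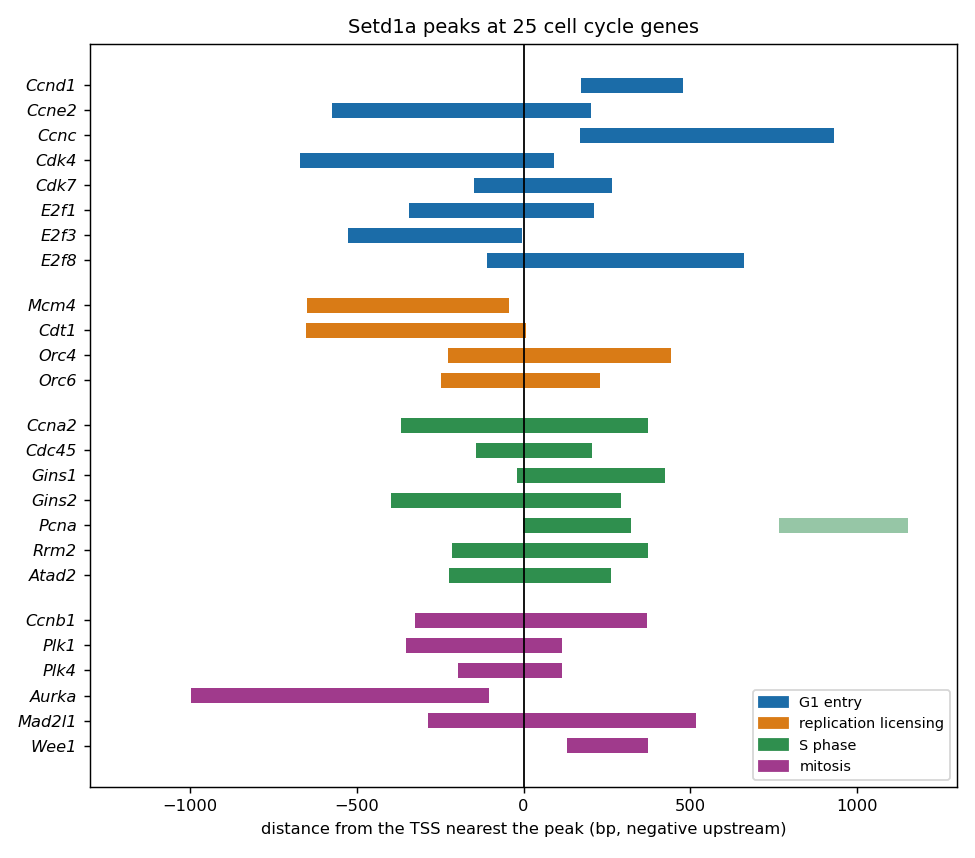
Extent of the Setd1a peaks at the 25 genes with a peak, 1 row per gene, in bp from the TSS nearest the peak (negative is upstream, the vertical line is the TSS), coloured by stage; the paler bar is the second peak of *Pcna*. Peaks cross the TSS at 19 genes, lie wholly upstream at *E2f3*, *Mcm4* and *Aurka*, and lie wholly downstream at *Ccnd1*, *Ccnc* and *Wee1*.

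The position and width of the peaks are given beside those at other genes. The TSS was covered at 19 of 25 genes (76.0%), against 76.3% of protein-coding genes with a peak on the assembled chromosomes (3590 of 4705). In both, the TSS was the annotated start nearest the peak, a choice that favours coverage. The 5′-most protein-coding TSS was covered at 16 of the 25, and no such share is given for other genes. The median width was 588 bp (quartiles 444 and 740 bp), against 546 bp (376 and 779 bp). None of the 25 peaks reached 1000 bp, a width seen at 523 of the 4705 genes (11.1%). A peak was shared with a protein-coding gene on the opposite strand at 5 genes (*Mcm4*, *Orc4*, *Orc6*, *Cdc45* and *Aurka*), or 20.0% against 26.8% of protein-coding genes with a peak. At 4 genes (*E2f8*, *Gins2*, *Pcna* and *Plk1*) the peak was shared with a noncoding gene only, and at 16 (64.0% against 56.2%) with no other gene.

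The 1000 bp limit fell in a wide gap. The genes just inside it were *Ccnd1* (171 bp), *Ccnc* (170 bp) and *Wee1* (131 bp), and the nearest outside were *Ccnd3* (2741 bp) and *Mcm2* (3122 bp). Beyond 3000 bp and up to 10000 bp came 5 genes (*Mcm2*, *Mcm7*, *Aurkb*, *Cdc20* and *Cdc25b*), and 9 genes followed between 10000 and 50000 bp. The remaining 20 genes (33.3%) had no peak within 50000 bp, against 51.9% of all protein-coding genes. No further peak lay over the body of any of the 60 genes.

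**Figure D3:**
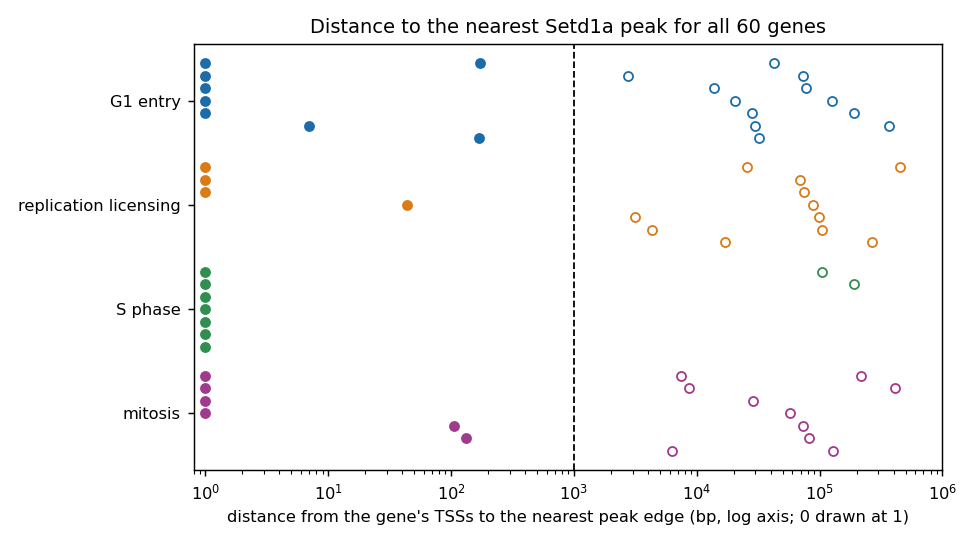
Distance from the TSSs of each of the 60 genes to the edge of the nearest Setd1a peak (horizontal log axis, bp, with 0 drawn at 1), 1 point per gene, by stage; filled points are genes with a peak and the dashed line is the 1000 bp limit. No gene falls between 171 and 2741 bp, and all 7 filled S phase points are at 0.

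The CpG ratio around the start had a median of 0.852 at the 25 genes with a peak and 0.771 at the 35 without. The start used was the one nearest the peak or, without a peak, the 5′-most protein-coding one, so that the peak itself placed the window. Over all protein-coding genes these medians were 0.794 and 0.433. Of the 30 genes with a ratio of 0.8 or more, 16 had a peak (53.3%, against 47.8% of protein-coding genes), and of the 22 between 0.6 and 0.8, 8 had one (36.4% against 32.8%). Between 0.4 and 0.6 it was 1 of 8 (12.5% against 11.2%), and no gene of the group was below 0.4. With the 5′-most protein-coding start for every gene, chosen as an alternative after the data had been seen, it was 15 of 29 (51.7% against 46.8%), 9 of 23 (39.1% against 32.6%) and 1 of 8 (12.5% against 12.8%). The G1 entry group went the other way, with a median of 0.708 at genes with a peak and 0.818 at genes without. *E2f5* (0.958), *E2f2* (0.946) and *Ccne1* (0.915) lacked a peak in spite of high ratios, and *Cdk7* (0.628), *Cdk4* (0.643) and *Ccnc* (0.658) had one at lower ratios.

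**Figure D4:**
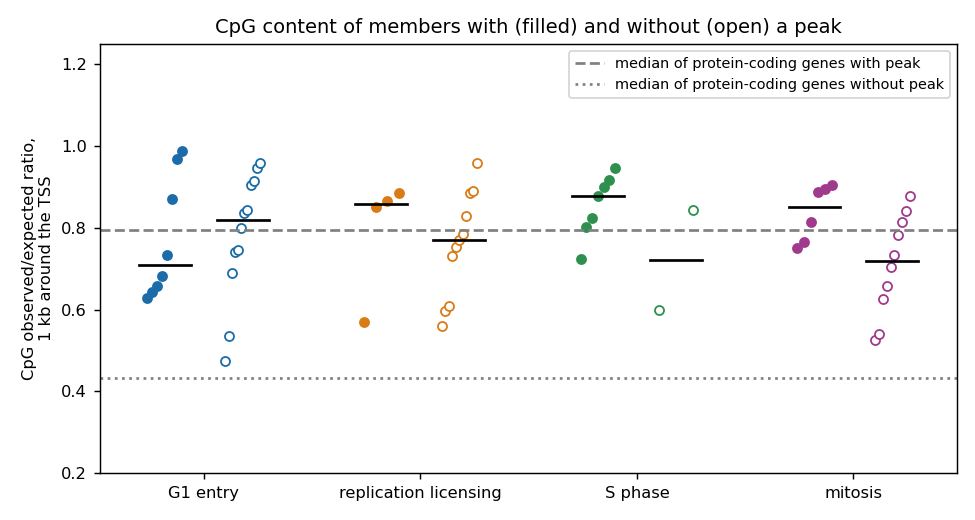
CpG observed over expected ratio in the 1000 bp around the TSS (vertical axis, no unit) for each gene, by stage, with filled points for genes with a peak, open points for genes without and a bar at each median. The grey lines are the medians of all protein-coding genes with (0.794) and without (0.433) a peak; in the G1 entry group the median is lower with a peak (0.708) than without (0.818).

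The letters searched in the 250 bp upstream of the TSS were spread unevenly over the stages, with E2F letters mainly in the first and second groups and CHR letters mainly in the last. E2F letters were found at 14 of the 60 genes (23.3%), against 2.38% of all protein-coding genes and 4.01% of those with a CpG-rich promoter. They were at 6 of 20 G1 entry genes (*Cdk2*, *E2f1*, *E2f2*, *E2f3*, *E2f7* and *Cdc25a*), 6 of 15 licensing genes (*Mcm4*, *Mcm5*, *Mcm6*, *Gmnn*, *Orc1* and *Orc3*), *Gins1* and *Cdk1*. Of these 14 genes, 4 had a peak (*E2f1*, *E2f3*, *Mcm4* and *Gins1*), and of the 46 without the letters, 21 did. Over all protein-coding genes, 36.3% of those with E2F letters and 21.1% of those without had a peak.

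CHR letters are short and common, and were found at 14 of 60 genes (23.3%), against 15.5% of protein-coding genes and 10.3% of the CpG-rich ones. They were at 9 of the 16 mitosis genes (56.3%), which were *Ccnb2*, *Cdk1*, *Aurkb*, *Bub1b*, *Mad2l1*, *Cdc20*, *Cdc25c*, *Wee1* and *Mki67*, and at 3 G1 entry genes, 1 licensing gene and 1 S phase gene. Among these 9 mitosis genes, 2 had a peak, and among the other 7 mitosis genes, 4 did (*Ccnb1*, *Plk1*, *Plk4* and *Aurka*). Over all 60 genes it was 5 of the 14 with CHR letters and 20 of the 46 without, and over all protein-coding genes 12.9% of those with the letters and 23.0% of those without had a peak. The CCAAT box (CCAAT, either strand), which often stands beside a CHR, was found at 39 of 60 genes (65.0% against 35.7%) and at 14 of 16 mitosis genes, all but *Plk4* and *Mad2l1*. A peak was present at 15 of the 39 genes with a CCAAT box and at 10 of the 21 without (38.5 and 47.6%), against 22.9% of protein-coding genes with a CCAAT box and 20.6% of those without.

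**Figure D5:**
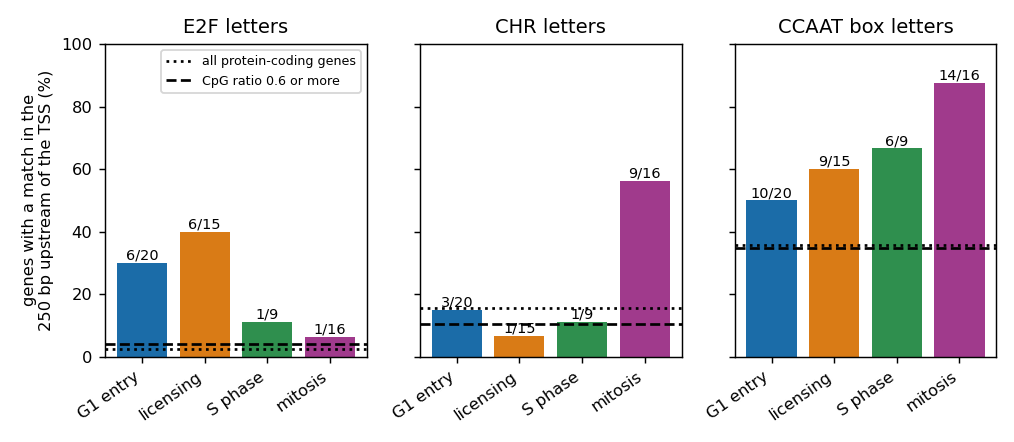
Share of genes in each stage (bars, percent, with counts above) whose 250 bp upstream of the TSS hold E2F, CHR or CCAAT box letters on either strand. The dotted line marks all protein-coding genes and the dashed line those with a CpG ratio of 0.6 or more; E2F letters are most frequent in the G1 entry and licensing groups (6 of 20 and 6 of 15) and CHR letters in the mitosis group (9 of 16).

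Letters of general promoter factors were closer to the background of CpG-rich genes. The GC box (GGGCGG), read by Sp1 and its relatives, was found at 41 of 60 genes (68.3%), against 66.5% of CpG-rich protein-coding genes. Of these 41 genes, 18 had a peak (43.9%, against 34.4% of all protein-coding genes with a GC box). Of the 19 without a GC box, 7 had a peak (36.8%, against 12.2% of all protein-coding genes without one). ETS letters (CCGGAAG) were found at 12 genes (20.0% against 15.1%), of which 5 had a peak (41.7%, against 41.5% of all protein-coding genes with these letters). NRF1 letters (GCATGCGC) were found at *E2f6*, *Cdt1* and *Plk4*, and YY1 letters (AAGATGGCG) at *Mcm5*, against 5.21% and 1.52% of CpG-rich genes. Matches of different motifs, and of the same motif on both strands, may overlap, as at *Gins1*. A match is a run of letters in this window and no evidence of binding. Only the exact runs listed were counted, so a gene without a match may still hold a site spelled otherwise.

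Other genes of the pathway were taken from 5 lists, whose median CpG ratios lay between 0.775 and 0.883, so that the 39.6% of CpG-rich protein-coding genes is the closer background and 21.4% that of all. Of 10 CDK inhibitors and pocket proteins, which hold cells out of the cycle, 2 had a peak (20.0%, 5.67 to 51.0%): *Cdkn2d* (p19, 1085 bp) and *Cdkn1b* (p27, 582 bp). None of the pocket protein genes *Rb1*, *Rbl1* and *Rbl2* had one. Among 9 E2F partners and MuvB or DREAM genes, 5 had a peak (55.6%, 26.7 to 81.1%), the widest at *Lin52* (900 bp), *Rbbp4* (867 bp) and *Lin37* (754 bp). Among 26 further genes of the replication fork, 4 had one (15.4%, 6.15 to 33.5%), at *Timeless* (821 bp), *Rfc4* (589 bp), *Tipin* (379 bp) and *Wdhd1* (262 bp). *Gins3* and *Gins4*, the genes of the other subunits of the GINS complex, had none, nor had the polymerase, primase and RPA genes of this list, beside 7 of 9 in the S phase group described above, and the difference was not tested. *Wdhd1* and the genes named here without a peak were singled out after their values had been seen.

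Of 15 genes of the anaphase-promoting complex and its activator, which is needed to keep cells in G1, 10 had a peak (66.7%, 41.7 to 84.8%, against 39.6%), the widest at *Anapc16* (1062 bp), *Fzr1* (1004 bp) and *Anapc2* (983 bp). Of 13 condensin and cohesin subunits, 6 had one (46.2%, 23.2 to 70.9%, near the 39.6% of CpG-rich protein-coding genes), the widest at *Smc4* (669 bp), *Ncapg* (545 bp) and *Ncapd3* (505 bp). A peak gives no level of expression, and no list of these is tested against another.

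The labels call the cells neural progenitors, and a peak list cannot show which genes they expressed. Peaks lay at 6 of 10 neural stem cell markers, the widest at *Gfap* (1663 bp), *Vim* (1037 bp) and *Sox2* (832 bp). *Sox9*, *Hopx*, *Fabp7* and *Slc1a3* of this list had none. Peaks also lay at 2 of 5 oligodendrocyte lineage markers (*Olig1* and *Olig2*), and at none of 5 neuron, 4 microglia and 3 endothelial markers. The share was 21.4% over all protein-coding genes and 2.32% over those with a CpG ratio under 0.4. The marker promoters differ in CpG content from those of the cell cycle genes. The median ratio was 0.196 at the microglia markers, 0.294 at the endothelial, 0.599 at the oligodendrocyte lineage, 0.6015 at the neuron and 0.619 at the neural stem cell markers. The 2.32% is therefore no background for the neuron, oligodendrocyte lineage or neural stem cell markers as a set. Of all protein-coding genes, 11.2% had a peak at ratios between 0.4 and 0.6, and 32.8% between 0.6 and 0.8.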

How the data were processed

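The libraries were 2 Setd1a replicates and 1 IgG control. The submitters' processing notes name Trimmomatic 0.32, Bowtie2 2.1.0, SAMtools 0.1.18 and MACS2 2.2.8. The authors trimmed the reads, kept unique mm10 alignments of sufficient quality, called peaks at default settings and deposited the intervals found in both replicates; the deposited values are positions in bp (chromosome, start and end). Use of the IgG library in peak calling is not given in the sources used here. Starts were read as 1-based, which may be off by 1 bp. No column of values was left unmatched.

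Peaks were set against GENCODE M21 TSSs and mm10 sequence with Python 3.11.15, numpy 2.4.6, scipy 1.17.1 and matplotlib 3.10.9, after the placing of peaks had been checked on simulated intervals. The TSS of a gene was the one nearest its peak or, without a peak, its 5′-most protein-coding basic TSS. CpG ratios and letters were counted for 21938 of 22028 genes, those with a full window on assembled chromosomes. Wilson intervals are at 95%. No test was run, because the list holds no value per replicate.

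The 60 genes, their stages and the other lists were chosen with earlier results of these data known. All 60 are accounted for. Full values are given for the 3 widest peaks of each stage, peaks nearer another gene and nearest peaks at 1000 to 3000 bp. Of genes with a peak, at most 3 are named from each other list by width, *Wdhd1* apart. Sequences are at most 120 bases for genes with a peak and E2F or CHR letters. Alternatives covered the window, TSS set, assignment, width and point of the peak, and the window and TSS of the letters. Expression was not analysed here.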

Additional observations from a re-analysis of the deposited data

How the results depend on the processing

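Between 19 and 26 of the 60 genes had a peak under the alternative windows, TSS sets, assignments, widths and points of measurement, while the share of all protein-coding genes ranged from 16.3 to 22.9%. With only peaks that cover a TSS (0 bp), the G1 entry count fell from 8 to 5, because *Ccnd1*, *Ccnc* and *E2f3* dropped out; *Mcm4*, *Aurka* and *Wee1* dropped out of the other stages. *Ccnd1* was lost with protein-coding or basic transcripts alone, and *E2f8*, *Mcm4*, *Plk1* and *Aurka* when each peak went to its nearest TSS only (21 of 60). *Wee1* was lost at a minimum width of 300 bp, and *Ccnd3* was gained at 3000 bp. The S phase count was 7 under all of these. With 500 bp upstream, CHR letters were found at 24 genes in place of 14, as the share of all protein-coding genes rose from 15.5 to 33.2%, and E2F letters at 18. With the 5′-most protein-coding TSS, *E2f1* lost its E2F letters and *Mad2l1* its CHR letters, which gave 13 genes each.

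No paired analysis was possible because the peak list joins the replicates and has no column for either, and no replicate was left out for the same reason. Depth is unknown, and without heights the list does not rank the peaks.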
